A study of Mus musculus with 11 samples.

Results

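Monocytes and macrophages that were not marked as proliferating were taken from single-cell RNA sequencing of mouse colon mucosa. They were the cells that the authors' cell table puts in the class Macrophage, without those whose full name calls them proliferating, and they numbered 8171 of 55603 cells. Each library was a single pool of 3 to 8 mice, and the groups differed as follows. The DSS libraries came from wild-type mice of about 2 months that received 3% dextran sulfate sodium (DSS), which damages the colon epithelium and causes colitis, for 6 days. They were dissected on days 6, 7, 9, 11 and 12 and on days 16, 18, 19 and 23, counted from the start of DSS. The library labelled Il10-/- came from mice of about 10 months, without DSS, bred without the anti-inflammatory cytokine interleukin 10, in which raised faecal lipocalin had shown colitis. The uninjured library came from untreated wild-type mice of about 2 months. Age and genotype changed together, so they cannot be told apart in the library labelled Il10-/-. In all groups the muscle layers had been stripped, the mucosa digested with enzymes, red cells lysed and cells with annexin V on their surface removed. Days 7, 11 and 18 carry the batch label C and were run fresh from 3 mice each, while the other 8 libraries were frozen, came from 8 mice each and were thawed and run on the same day.

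Macrophages of the gut wall take up bacteria and dying cells and are kept in number mostly by blood monocytes that enter the tissue. Such monocytes carry Ly6C and the chemokine receptor Ccr2, and as they mature they lose Ly6C and gain MHC class II, complement C1q, the mannose receptor Mrc1 and the fractalkine receptor Cx3cr1. In colitis this sequence is known to stall, and cells between monocyte and macrophage pile up with genes of inflammation switched on. MHC class II molecules show peptides to helper T cells. Their genes are driven together by the co-activator Ciita, which binds no DNA itself and docks on factors that sit on a shared promoter module, the S, X and Y boxes.

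The members numbered 989, 567, 1453, 489 and 985 cells on days 6, 7, 9, 11 and 12, and 1037, 155, 1152 and 447 cells on days 16, 18, 19 and 23. There were 834 in the library labelled Il10-/- and 63 in the uninjured library. Their summed UMI counts (UMIs stand for captured RNA molecules) ranged from 219869 in the uninjured library to 6283906 on day 7. The median UMI count of a cell was 9495 to 11126 on the days with batch label C, against 2623 to 4190.5 elsewhere, and the median mitochondrial share was 3.52% to 11.0%. Levels are given as CPM, which scales the summed UMIs of the named cells of a library to 1000000. Cell barcodes seen in more than 1 library numbered 70 among the members. Il10 itself was at 52.4 CPM (225 counts) in the library labelled Il10-/-, at 2.55 to 47.4 CPM in the DSS libraries and at 22.7 CPM (5 counts) in the uninjured library. The labels do not say which part of the gene is missing, and 3' counts read transcript ends, so this level does not check the label.

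The class was checked against its markers, and 1 of its 3 numbered cell groups went against the name. Cell group 11 held 3687 cells, group 16 held 3232 and group 29 held 1252, or 15.3% of the members. Csf1r, the receptor that keeps macrophages alive, was at 531 CPM in group 11, 444 CPM in group 16 and 55.2 CPM in group 29. The complement gene C1qa was at 2301, 229 and 11.0 CPM in groups 11, 16 and 29, and the lysozyme gene Lyz2 at 4873, 9003 and 482 CPM. Group 29 had the lowest level of all 3 genes. It had the highest level of 4 dendritic cell genes: the growth factor receptor Flt3 (137 CPM), the migration receptor Ccr7 (852 CPM), the chemokine receptor Xcr1 (82.8 CPM) and the lectin Cd209a (169 CPM). The same genes were at 0.272 to 63.2 CPM in groups 11 and 16. Group 29 made up 26.6%, 16.0% and 45.8% of the members in batch C on days 7, 11 and 18, and 12.0% to 16.5% on the other days. It is called by its number here. Counts of calls and the calls of genes named with values are given below without it as well, where they differ.

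**Figure D1:**
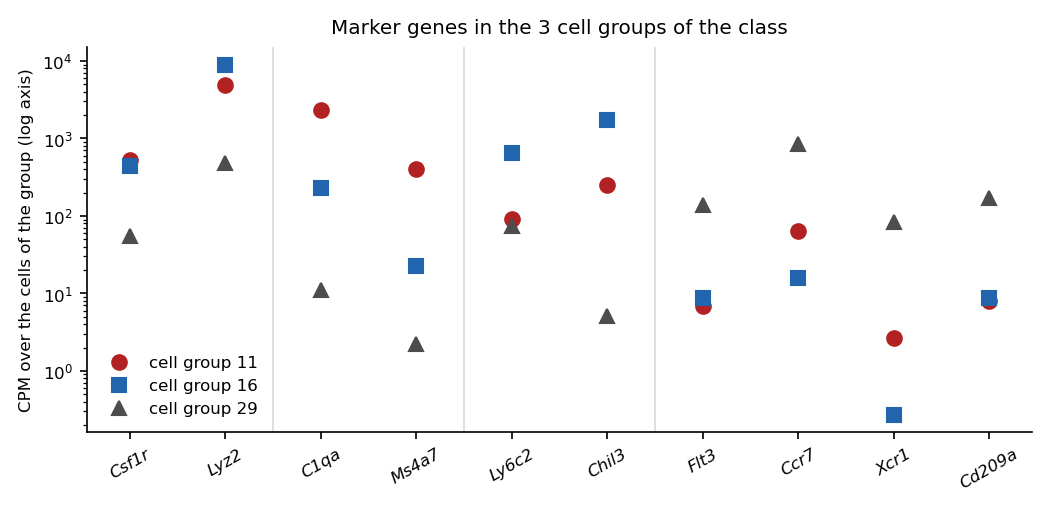
CPM on a log axis of 10 marker genes, summed over all cells of cell groups 11, 16 and 29. Group 29 (triangles) lies below both other groups for Csf1r, Lyz2, C1qa and Ms4a7, at 55.2 CPM for Csf1r, and above both for Flt3, Ccr7, Xcr1 and Cd209a, at 852 CPM for Ccr7.

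Cells were then placed between monocyte and resident macrophage by a score. It was the log2 ratio of UMIs from 8 resident genes (among them C1qa, C1qb, C1qc, Mrc1, Adgre1, Cx3cr1 and Cd163) to UMIs from 5 monocyte genes (Ly6c2, Plac8, Ccr2, Chil3 and Vcan), with 1 added to each sum, after every cell had been thinned to 1000 UMIs. Of 8171 members, 1232 had fewer UMIs and were not scored. Of these, 1216 were in group 11, 3 in group 16 and 13 in group 29. Each frozen DSS library lost 81 to 225 cells in this way, and each library with batch label C lost 4 to 17. The shares below therefore leave out a part of group 11, and more of it in the frozen libraries. Cells at 1 or above are called resident-like (1400 cells), cells at -1 or below monocyte-like (4318), and 1221 lay in between. These are ranges of a score and not cell types, and 1212 cells lay within 0.5 of a limit. Group 16 was mostly monocyte-like (85.2% of its scored cells), group 11 held 48.9% resident-like and 33.0% monocyte-like cells, and of group 29 60.7% fell in the monocyte-like range. In 383 cells of group 29 none of the 13 genes was left after thinning, so their score was 0. Free RNA can put such UMIs into other cells, and the members had 706 CPM of C1qa and 3859 CPM of Plac8, against 3.15 and 528 CPM in neutrophils.

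The monocyte-like share was largest early after DSS and became smaller with time. It was 70.6%, 73.1%, 75.6% and 70.8% of the scored members on days 6, 7, 9 and 11, then 58.4%, 59.6%, 58.9% and 57.1% on days 12, 16, 18 and 19, and 44.0% on day 23 (exact binomial 95% interval 38.8% to 49.2%). The first 4 libraries lay above all 5 later ones. Over the 9 DSS libraries the share had r = -0.908 with day (exact permutation p = 0.00125, adjusted for 2 relations 0.00249) and rho = -0.833 (exact p = 0.00827, adjusted 0.00827). Within the 6 libraries with no batch label r was -0.904 (exact p = 0.0194) and rho -0.886 (exact p = 0.0333), and batch C, with 3 libraries, was too small for its own value. Without days 19 and 23, the days farthest from the median, r was -0.810 (exact p = 0.0381) and rho -0.643 (exact p = 0.139). Without cell group 29 the share was 83.0% on day 7, 63.7% on day 18 and 40.3% on day 23. Its r over the 9 DSS libraries was then -0.874 (exact permutation p = 0.0024).

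The resident-like share took the opposite course. It was 11.4%, 4.73%, 9.61% and 11.4% on days 6, 7, 9 and 11, then 24.7%, 24.2%, 15.9% and 25.9% on days 12, 16, 18 and 19, and 38.5% on day 23. All 5 later libraries lay above the first 4. Its r with day was 0.854 (exact permutation p = 0.00356, adjusted 0.00356) and its rho 0.883 (exact p = 0.00308, adjusted 0.00615). Within the 6 libraries with no batch label r was 0.926 (exact p = 0.0111), and without days 19 and 23 it was 0.661 (exact p = 0.105), so the r rests in part on those libraries. In the library labelled Il10-/- 36.6% were resident-like and 43.5% monocyte-like, and in the uninjured library 76.0% (interval 61.8% to 86.9%) and 6.00% (1.25% to 16.5%), from 50 scored cells. Shares are of captured cells that passed the authors' filter.

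**Figure D2:**
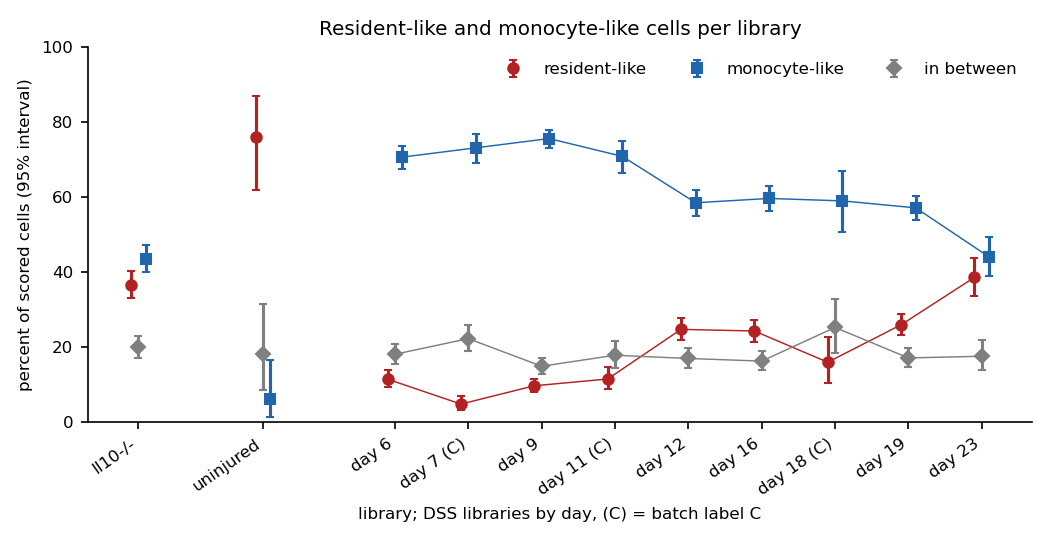
Percent of scored members (vertical axis, with exact binomial 95% intervals) that were resident-like, monocyte-like or in between, for the library labelled Il10-/-, the uninjured library and the 9 DSS libraries in order of day. The monocyte-like share is 70.6% on day 6 and 44.0% on day 23, and the uninjured library alone is mostly resident-like, at 76.0%.

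The promoters of 3 MHC class II genes are shown because these genes moved together with day, as described next. Each sequence is 250 bases before to 50 bases after the gene's start, read in the direction of the gene, from RefSeq on GRCm38.p6. Capitals mark GATTGG and its reverse complement CCAATC, the core letters of the Y box. H2-DMb1 lies at chr17:34152941-34153240 (plus strand), H2-Aa at chr17:34287774-34288073 (minus strand) and H2-Eb1 at chr17:34305617-34305916 (plus strand).
H2-DMb1: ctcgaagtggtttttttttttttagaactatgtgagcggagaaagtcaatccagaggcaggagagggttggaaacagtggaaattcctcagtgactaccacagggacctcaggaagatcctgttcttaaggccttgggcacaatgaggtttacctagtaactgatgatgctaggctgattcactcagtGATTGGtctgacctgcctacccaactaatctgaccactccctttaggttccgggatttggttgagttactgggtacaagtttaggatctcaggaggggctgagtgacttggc
H2-Aa: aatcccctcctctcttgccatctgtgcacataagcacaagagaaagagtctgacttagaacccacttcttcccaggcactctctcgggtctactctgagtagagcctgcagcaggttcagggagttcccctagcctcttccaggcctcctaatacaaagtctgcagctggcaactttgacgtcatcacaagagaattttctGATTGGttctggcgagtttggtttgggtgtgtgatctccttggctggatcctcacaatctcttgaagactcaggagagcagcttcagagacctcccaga
H2-Eb1: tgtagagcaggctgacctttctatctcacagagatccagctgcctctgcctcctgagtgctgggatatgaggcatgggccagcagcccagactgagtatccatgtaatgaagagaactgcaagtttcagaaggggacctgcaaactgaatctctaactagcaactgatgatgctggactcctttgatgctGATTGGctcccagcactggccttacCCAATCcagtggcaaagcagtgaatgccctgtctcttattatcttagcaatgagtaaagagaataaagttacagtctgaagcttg
H2-Eb1 held 1 match on each strand. Of the 10 genes of the MHC class II list, 7 had promoters in the table, and each of the 7 had at least 1 promoter with a match. Counted by promoter, 7 of their 8 promoters held a match. Of all 32851 promoters in the table, 16.11% held a match on either strand. A match describes letters only and not the binding of a factor.

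MHC class II genes rose with day in the members, in both ranges of the score. Day slopes are log2 changes per 10 days over the 9 DSS libraries, from edgeR's quasi-likelihood test with batch label as a term and Benjamini-Hochberg adjustment over all genes tested, and genes with an adjusted p under 0.05 are called. Of 10 MHC class II genes, 9 rose and none fell, with a median slope of 0.86, against a median of 0.01 over all genes. Among all 9965 genes tested, 3.91% rose and 5.88% fell. Cd74, the invariant chain that escorts class II molecules, was at 9521, 9083, 9464 and 8768 CPM on days 6, 7, 9 and 11. It was at 11769, 15771, 18533 and 17267 CPM on days 12, 16, 18 and 19 and at 27447 CPM on day 23. All 5 libraries of day 12 and later lay above the 4 earlier ones, and the slope was 0.90 ± 0.10 (SE, n = 9 libraries, adjusted p = 0.000546 by edgeR). The cut between days 11 and 12, used for the shares above and for genes below, was not a planned comparison. Genes with a large day slope tend to separate at such a cut, so it describes levels and is no further test. The share of all genes that separate at it is not given here.

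H2-Aa, an alpha chain of the class II molecule, lies at chromosome 17, 34282744 to 34287823 on the minus strand (mm10). It was at 4533, 3681, 4223 and 3568 CPM on days 6, 7, 9 and 11, at 5049, 6768, 7604 and 7331 CPM on days 12, 16, 18 and 19 and at 9775 CPM on day 23. The earlier and later libraries did not overlap here either, and the slope was 0.75 ± 0.10 (adjusted p = 0.000807 by edgeR). The beta chain genes H2-Ab1 (0.85 ± 0.10) and H2-Eb1 (0.76 ± 0.11), the co-activator Ciita (0.87 ± 0.14) and the peptide-loading genes H2-DMa (0.68 ± 0.09) and H2-DMb1 (0.64 ± 0.08) rose as well. The largest slopes were those of H2-DMb2 (1.33 ± 0.20), H2-Oa (1.13 ± 0.33, adjusted p = 0.077, not called) and H2-Ob (1.10 ± 0.19). Without cell group 29 all 10 rose, with a median of 0.96, where 3.93% of 9217 genes rose and 4.91% fell.

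Within the monocyte-like range all 10 rose (median slope 0.91), where 2.48% of 8665 genes rose and 3.42% fell. Without cell group 29 it was 7 of 10 (median 0.68), where 0.942% of 7749 genes rose and 1.06% fell, and H2-DMb2, H2-Oa and H2-Ob had adjusted p of 0.24, 0.232 and 0.124. With group 29 included, H2-Aa in the range was at 2525 to 3371 CPM on days 6 to 11 and at 3624 to 7179.7 CPM from day 12 on. Over all libraries 752 of the 4318 monocyte-like cells were of group 29, and its part in these levels was not tested. Within the resident-like range 6 of 10 rose (median 0.79), where 0.386% of 5963 genes rose and 0.755% fell, and 3 of 9 tested without group 29 (Cd74, H2-DMa and H2-DMb2, median 0.55), where 0.391% of 6133 genes rose and 0.424% fell. H2-Aa there was at 5701 to 9045 CPM on days 6 to 11 and at 8437 to 13237 CPM later, so the days overlapped. The slope of none of the 10 genes was called different between resident-like and monocyte-like cells by edgeR or DESeq2, where edgeR called 0.146% of 8200 genes. H2-Aa, H2-Ab1 and H2-Eb1 had an unadjusted p under 0.05, as had 619 of all 8200 genes. For H2-Aa the difference was -0.29 ± 0.11 (adjusted p = 0.491 by edgeR).

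Markers of other cell types were set beside this rise. Dendritic cell markers (8 of 8 seen) summed to 271 to 601 CPM in the members of the DSS libraries and to 20.3 to 93.9 CPM without group 29, and none of 8 was called with day by edgeR, where Clec9a, Siglech and Xcr1 rose at an unadjusted p under 0.05 and DESeq2 called Clec9a and Xcr1. B cell markers (6 of 6 seen, and B cells carry class II) summed to 7.56 to 67.5 CPM. By edgeR Cd79b and Ms4a1 of 4 tested rose, Ms4a1 with group 29 only. DESeq2 called all 4 as rising: Cd79a, Cd79b, Ebf1 and Ms4a1. H2-Aa in the members, at 3568 to 9775 CPM, lay above its 17.3 to 165 CPM in neutrophils of the same libraries and its 106 to 702 CPM in all other cells together. The part of these cell types in the slopes was not tested beyond these values.

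**Figure D3:**
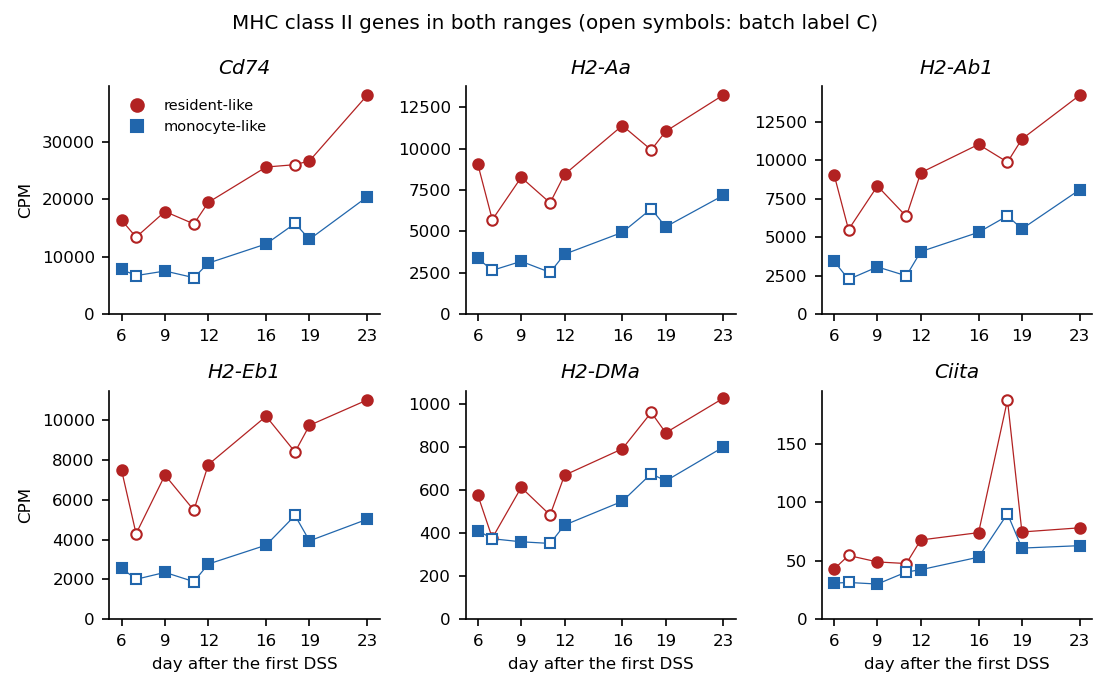
CPM of 6 MHC class II genes by day after the first DSS, in resident-like cells (circles) and monocyte-like cells (squares), with 1 point per library and open symbols for batch label C. Both ranges end higher than they start for Cd74, and resident-like cells lie above monocyte-like cells at each day for H2-Aa, at 13237 against 7179.7 CPM on day 23.

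Genes of resident macrophages rose across the members and genes of monocytes fell. In all, 390 of 9965 genes rose (3.91%) and 586 fell (5.88%). Without group 29 it was 362 (3.93%) and 453 (4.91%) of 9217, with 607 genes called in both. Leaving out day 23 left 346 calls, day 6 604 and day 9 646, and a model with no batch term made 147. Of 7 tested resident genes of the score 4 rose, among them C1qa (1.14 ± 0.24), C1qc (1.05 ± 0.24) and Cx3cr1 (0.91 ± 0.14). C1qa was at 331, 213, 323 and 395 CPM on days 6, 7, 9 and 11, at 708, 843, 281 and 1033 CPM on days 12, 16, 18 and 19 and at 1629 CPM on day 23. Day 18 was low among the later libraries, and it also had the highest share of group 29. C1qb had a slope of 1.03 (adjusted p = 0.066), Mrc1 -0.02 and Adgre1, which encodes F4/80, 0.12, and these 3 were not called. C1qb was called by DESeq2, and by edgeR without group 29, where 5 of 7 rose.

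Of 27 further resident macrophage genes, 21 could be tested, 6 rose and 1 fell (median 0.62, and 1.04 without group 29, with 10 rising). Ms4a7, a membrane protein gene of mature macrophages, was at 47.0, 46.0, 55.0 and 45.0 CPM on days 6 to 11. It was at 101, 142, 73.8 and 197 CPM on days 12, 16, 18 and 19 and at 325 CPM on day 23, with a slope of 1.42 ± 0.16 (adjusted p = 0.000731 by edgeR). Gpr34, a receptor for lysophosphatidylserine (chromosome X, 13632089 to 13640858), was at 1.07 to 2.79 CPM on days 6 to 11 and at 5.97 to 18.8 CPM from day 12 on. Its slope was 2.20 ± 0.28 (adjusted p = 0.000642). The tetraspanin gene Cd81 (1.61 ± 0.18), Cd4 (1.80 ± 0.35), which long-lived gut macrophages are known to carry in mice, Fcrls (1.12 ± 0.32) and the Notch target Hes1 (0.62 ± 0.14) rose too. Cd4 was low, at 4.76 CPM in the members over the DSS libraries against 4.53 CPM in all other cells, so it does not mark out such macrophages here. F13a1, a clotting factor chain that monocytes and some tissue macrophages both make, fell by 1.32 ± 0.21 on the log2 scale. Levels of these genes are averages over the members, so a larger share of resident-like cells and more RNA per cell cannot be told apart here.

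On the monocyte side, Vcan, a matrix proteoglycan gene of blood monocytes, was the only one of the 5 score genes that fell (-1.59 ± 0.16). Ly6c2 (-0.22, adjusted p = 0.633), Plac8 (-0.44, adjusted p = 0.099), Ccr2 (-0.28, adjusted p = 0.113) and Chil3 (-1.77, adjusted p = 0.0572) were not called. Of 18 further monocyte genes 11 fell and 2, Cd9 and Lgals3, rose (median -0.71). Without group 29, 10 fell and Lgals3 alone rose (median -0.49). Thbs1, which encodes the matrix protein thrombospondin 1 (chromosome 2, 118111876 to 118127133), was at 3839.5, 3205, 2395 and 2521 CPM on days 6, 7, 9 and 11. It was at 2126, 1378, 843, 1466 and 718 CPM on days 12, 16, 18, 19 and 23. Every later library lay below every earlier one, with a slope of -1.39 ± 0.14 (adjusted p = 0.000415 by edgeR). Fn1, fibronectin, fell as well (-0.74 ± 0.10).

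The 12 rising genes with the largest slopes, among those at least as high in the members as in all other cells, were led by H2-M2 (2.28 ± 0.55), a non-classical class I gene. The list held the prostaglandin D synthase gene Hpgds (1.68 ± 0.17), the receptors for parasite and bacterial proteins Tlr11 (1.63 ± 0.40) and Tlr12 (1.62 ± 0.21), the C-type lectin gene Mgl2 (1.43 ± 0.16) and the adhesion gene Cadm1 (1.63 ± 0.28). Gpr162, the potassium channel gene Kcnj10 and the ubiquitin ligase part Asb2 completed it with Gpr34, Cd4 and Ms4a7. Gpr162, Tlr11, Kcnj10, Cd4 and Gpr34 were low in the members, at 2.39 (Gpr162) to 4.85 CPM (Gpr34) over the DSS libraries. Hpgds was at 6.76 to 7.96 CPM on days 6 to 11 and at 18.2, 25.9, 22.9, 33.9 and 49.3 CPM on the 5 later days, again without overlap. Falling genes were led by Serpinb2, an inhibitor of plasminogen activators (-1.92 ± 0.33), which was at 28.1 to 52.5 CPM on days 6 to 11 and at 2.55 to 21.7 CPM later. Behind it came Vcan, Map3k15, the AP-1 repressor gene Jdp2 (-1.51 ± 0.18), the lipoprotein gene Apoc1 (-1.39 ± 0.21), Thbs1, Rhou, the zinc importer gene Slc39a14, F13a1, the formyl peptide receptor gene Fpr2, the cytokine gene Lif (-1.25 ± 0.28) and Abtb2. Tlr11 was not tested without group 29, and the other 23 stayed called without it.

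**Figure D4:**
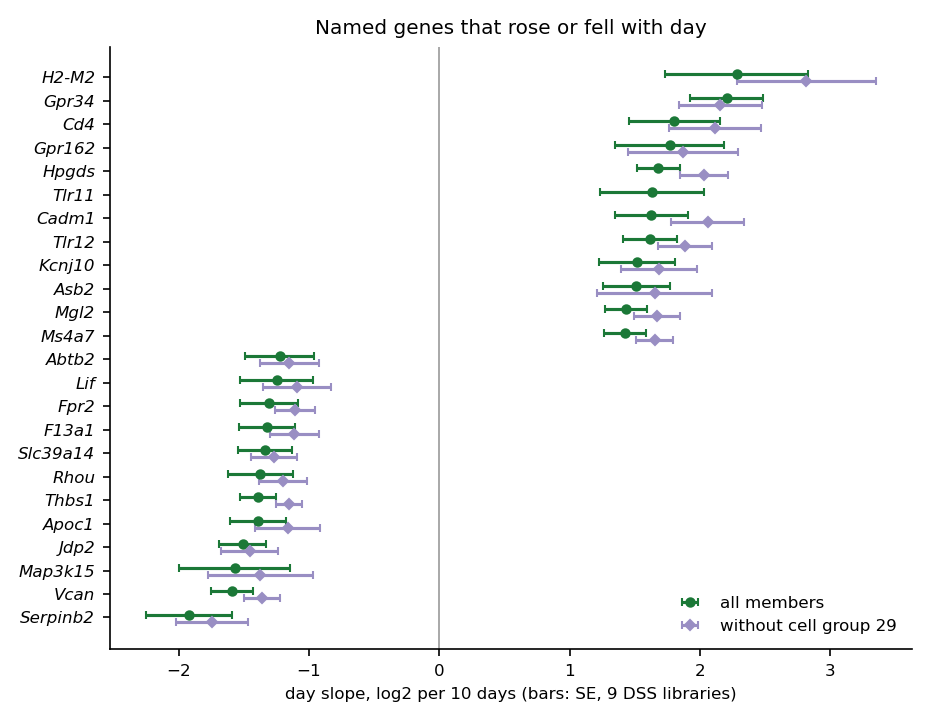
Day slopes in log2 per 10 days (points) with their SE (bars) over 9 DSS libraries for the 12 rising and 12 falling named genes, in all members and without cell group 29. Each pair of points lies on the same side of 0, and the slopes reach 2.28 for H2-M2 and -1.92 for Serpinb2.

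Few genes of inflammation were called by edgeR. Of 20 inflammatory cytokine and enzyme genes it called only Il18 (-0.41 ± 0.11), or 1 of 20 where 5.88% of all genes fell, while the list's median slope was -0.68. Over all 9965 genes 2697 had an unadjusted p under 0.05 in either direction, and DESeq2 called 369 as rising and 605 as falling. In this list 7 had an unadjusted p under 0.05, all lower with day, and DESeq2 called 4 as falling (Il18, Il1b, Ptgs2 and Saa3). Without group 29 edgeR called Ptgs2 and not Il18 (adjusted p = 0.157), with a median of -0.48. The interleukin gene Il1b was at 8515, 7136, 8891, 7374 and 7509 CPM on days 6, 7, 9, 11 and 12, and at 7495, 3947, 7381 and 6583 CPM on days 16, 18, 19 and 23. Day 18 was low and the other days lay close together, with a slope of -0.39 ± 0.12 (adjusted p = 0.056 by edgeR). The acute phase gene Saa3 (-2.46 ± 0.93, adjusted p = 0.152), the nitric oxide synthase gene Nos2 (-0.75 ± 0.79, adjusted p = 0.603), Ptgs2 (-0.74 ± 0.23, adjusted p = 0.0754) and Tnf (-0.47 ± 0.34, adjusted p = 0.435) were not called by edgeR with group 29 included. By edgeR none of 20 chemokine genes was called (median 0.03), while 4 had an unadjusted p under 0.05 and DESeq2 called Ccl6 and Ccl9 as falling. Without group 29 edgeR called Ccl12 and Cxcl16 as rising (median 0.25). None of 8 costimulation genes was called by edgeR, while 3 had an unadjusted p under 0.05 and DESeq2 called Cd86, which edgeR called as well without group 29 (0.44, adjusted p = 0.00914). Of 22 tested interferon response genes 1, Ifi209, fell (median -0.31), and DESeq2 called 4 as falling. Without group 29 edgeR called none of them (median -0.15).

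Sensors and receptors for inflammatory signals fell in part, where 5.88% of all 9965 genes fell and 3.91% rose (4.91% and 3.93% of 9217 without group 29). Of 20 tested pattern recognition genes 6 fell and none rose (median -0.39): Tlr2, which senses bacterial lipoproteins (-0.78 ± 0.13), the amplifying receptor Trem1 (-0.99 ± 0.21), the peptidoglycan sensors Nod1 and Nod2 (-0.76 ± 0.14 for Nod2), and the adaptors Myd88 (-0.50 ± 0.08) and Ticam2. Without group 29, 5 fell (median -0.30), and Nod1 and Ticam2 were not among them. Tlr2 was at 518, 307, 326 and 277 CPM on days 6 to 11 and at 352, 276, 122, 302 and 205 CPM on the later days, so the days overlapped. Of 21 cytokine and chemoattractant receptor genes 7 fell and 2 rose (median -0.24), and 6 and 2 without group 29 (median -0.10). Fpr1, a receptor for bacterial formyl peptides, had the largest slope (-2.21 ± 0.50), followed by the TNF receptor gene Tnfrsf1b (-1.07 ± 0.18) and Il17ra (-0.92 ± 0.11). Cx3cr1 and the TGF-beta receptor gene Tgfbr1 (0.78 ± 0.15) rose. Of 18 anti-inflammatory genes Il10ra (-0.43 ± 0.11), Il4ra (-0.38 ± 0.10) and Tnip1 fell, with adjusted p of 0.241 and 0.0834 for Il10ra and Il4ra without group 29, where 2 fell and 1 rose.

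Among 29 tested transcription factor genes 4 rose and 4 fell, where 3.91% of all 9965 genes rose and 5.88% fell. Without group 29 the shares of all 9217 genes were 3.93% and 4.91%, and several lists below lie near these shares. Irf8 (0.93 ± 0.18), Irf4 (0.69 ± 0.17, adjusted p = 0.0917 without group 29), Cebpa (0.93 ± 0.16) and Hes1 rose. Hif1a, the oxygen-sensing factor (-0.62 ± 0.13), the AP-1 gene Fosl2 (-0.58 ± 0.09), Cebpd (-0.48 ± 0.13) and Nr4a3 fell, Nr4a3 with group 29 only. Irf8 was highest on day 18 (528 CPM) and at 143 to 195 CPM on days 6 to 12. Of 22 tested matrix and growth factor genes 6 fell and 1, Pdgfa (0.83 ± 0.21), rose (median -0.33), and 5 fell and 3 rose without group 29. The EGF receptor ligand gene Ereg fell most (-2.29 ± 0.34). Of the other lists, lysosome genes had 3 of 22 rising and 1 falling, lipid genes 2 and 1 of 18 and complement genes 3 and 2 of 16. Without group 29 these became 5 and 1 of 22 for lysosome, 4 and 0 of 18 for lipid and 5 and 2 of 16 for complement genes. For uptake of dying cells 1 of 14 rose, the bridging factor gene Gas6 (1.30 ± 0.21), and 1 fell, and 3 rose and 2 fell of 13 without group 29. Iron genes had 2 of 12 falling, among them the haem oxygenase gene Hmox1 (-0.81 ± 0.14).

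Markers of other cell types also moved in the members with day. Neutrophil markers (8 of 8 seen) summed to 407 to 11021 CPM in the DSS libraries, highest on day 11 and lowest on day 23. By edgeR Csf3r and Ly6g of 7 tested fell (median -1.11). DESeq2 called 5 of the 7 as falling: Csf3r, Ly6g, Retnlg, S100a8 and S100a9. S100a8 was at 5128 CPM on day 11 and 230.0 CPM on day 23. Plasma cell markers (6 of 6 seen) summed to 22.6 to 9787 CPM, with the antibody gene Igkc rising by edgeR (3.32 ± 0.64, median of 4 tested 2.87). DESeq2 called all 4 as rising: Igha, Igkc, Jchain and Mzb1. Genes dissociation is known to induce had a median of 0.20, with Atf3 (0.84 ± 0.15), Jun and Hsp90aa1 rising and Ier3 falling of 19, and 5 rising and none falling without group 29. Fibroblast markers (8 of 8 seen, and fibroblasts make matrix) summed to 62.4 to 313 CPM, highest on day 6 and lowest on day 18. Of 7 tested, Col3a1 (-1.18 ± 0.25) and Sparc (-0.96 ± 0.25, with group 29 only) fell (median -0.96), and DESeq2 called 5 as falling. Both were called within the monocyte-like range and Col3a1 within the resident-like range too, in no case without group 29. Columnar epithelial markers (8 of 8 seen) summed to 292 to 989 CPM, and the mucin gene Muc2 of 8 tested rose by edgeR (1.02 ± 0.24). DESeq2 called Muc2 and Phgr1 as rising. The part of these cells and of handling in the slopes was not tested. Csf3r, Fpr1, Fpr2 and Trem1 are genes that neutrophils share with monocytes.

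Within the monocyte-like range 215 genes rose and 296 fell, but only 155 of 7749 were called without group 29, with 121 in both. Leaving out 1 library left 141 (day 23), 290 (day 7), 300 (day 18), 301 (day 6) and 313 calls (day 9), the 6 frozen DSS libraries alone 323, and a model with no batch term 33. Beside the class II genes, Irf8 (1.10 ± 0.16), Cd86 (0.41 ± 0.09) and the macrophage elastase gene Mmp12 (1.48 ± 0.33) rose and stayed called without group 29. With group 29 included, Irf8 was at 107 to 165 CPM on days 6 to 11 and at 175 to 422 CPM later. Jdp2 (-1.82 ± 0.18), Thbs1 (-1.20 ± 0.13), the retinal reductase gene Rdh11 (-1.49 ± 0.25), the receptor gene Cd93 (-1.25 ± 0.19) and Slc39a14 (-1.21 ± 0.25) fell with and without group 29. Serpinb2 (-1.80), Apoc1 (-1.22) and Adnp2 (-1.15) fell with it only. Apol7c had the largest slope (4.81 ± 0.87), and Apol7c, Mgl2 (1.69) and Asb2 (1.67) were not tested without group 29. Rasgef1b (1.20 ± 0.17) rose in both. None of 20 inflammatory genes was called by edgeR or DESeq2 (median -0.28, and 0.02 without group 29). Saa3 and Tnfsf14 had an unadjusted p under 0.05, as had 1983 of all 8665 genes, and edgeR gave Il1b a slope of -0.18 (adjusted p = 0.394).

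Within the resident-like range, which held 24 cells on day 18, 26 on day 7 and 54 to 243 on the other days, 23 genes rose and 45 fell, and 24 and 26 without group 29 (30 in both). This count moved with single libraries, from 6 without day 6, 16 without day 23, 22 without day 16, 24 without day 19 and 44 without day 12 to 108 without day 11 and 185 without day 7. It was 233 over the 6 frozen DSS libraries alone and 3 in a model without batch as a term. Cd81 (1.11 ± 0.16) was at 152, 249, 191 and 218 CPM on days 6 to 11 and at 273, 317, 288, 405 and 718 CPM later, without overlap. Zmynd15 (1.04 ± 0.23), Tlr12 (1.01 ± 0.21) and Mgl2 (0.94 ± 0.21) also rose with and without group 29. Hes1 (1.34), Ccdc102a (1.36), Nubp2 (1.27) and Ntpcr (0.90) rose with it only. Tlr2 (-1.09 ± 0.18), the angiogenic factor gene Vegfa (-1.12 ± 0.19), Jdp2 (-1.19 ± 0.21), the early response gene Ier3 (-0.99 ± 0.15) and Hif1a (-0.84 ± 0.14) fell in both fits. Vegfa was at 237 to 443 CPM on days 6 to 11 and at 48.0 to 350.1 CPM later. Gab1, Gpalpp1, Mxi1 and Ifi211 fell with group 29 only.

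The day slopes of 3 genes were higher and of 9 lower in resident-like than in monocyte-like cells (0.0366% and 0.11% of 8200). Apoe, the lipid carrier (chromosome 7, 19696109 to 19699188), was at 6852, 13504, 6536, 8529, 8911, 10934, 8186, 13846 and 20733 CPM by day in resident-like cells. In monocyte-like cells it was at 1098, 2424, 936, 1703, 1166, 845, 1579.7, 1205 and 1113 CPM. Resident-like cells were highest on day 23 and monocyte-like cells on day 7, with a difference in slope of 0.75 ± 0.14 (adjusted p = 0.0197 by edgeR). The antiviral membrane protein gene Ifitm3 was at 1629, 1227, 1528, 1219, 835, 496, 845, 631 and 514 CPM in resident-like cells and at 2997 to 4139.5 CPM in monocyte-like cells. The difference was -0.80 ± 0.15 (adjusted p = 0.0208). Cd33 (1.01), Ifi211 (-1.30), the oxidative folding gene Ero1l (-1.14), Nr4a2 (-0.94), the guanylate-binding protein gene Gbp2 (-0.90), the nucleotide hydrolase gene Samhd1 (-0.78) and Ier3 (-0.68) were the other named genes. Without group 29, 2 genes were higher and 40 lower (0.026% and 0.52% of 7690), and Cd33 and Nr4a2 were not among them. DESeq2 called 1 gene as higher and 3 as lower, and none of the genes named here (adjusted p by DESeq2 0.0741 to 0.279). Leaving out day 6 or day 9 left 1 call, day 12 2, day 23 4, day 18 7 and day 7 44.

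Resident-like and monocyte-like cells were also compared within each of 10 libraries, the 9 DSS libraries and that labelled Il10-/-, as a description without a test, since the score that parted them was made from the same cells. Of 1437 genes at 100 CPM or more in 1 range, 179 (12.5%) were higher and 354 (24.6%) lower in resident-like cells in all 10. The median log2 ratio over these genes, with 10 CPM added, was -0.12. MHC class II genes were higher in every library (6 of 6, median 1.09), with H2-Eb1 at a median of 1.38, and so were 16 of 18 lysosome genes (median 0.75), among them the protease genes Ctsb (1.42) and Lgmn (2.22) and the phosphatase gene Acp5 (2.46). Of 11 resident genes outside the score 9 were higher (median 1.96), led by the platelet factor gene Pf4 (4.98, range 3.38 to 6.54), Ms4a7 (4.61, 3.26 to 5.60) and Cd81 (3.39). The chemokine gene Ccl8 (3.08), Axl, which binds dying cells through Gas6 (3.07), the collagenase gene Mmp13 (2.95), the adhesion gene Vcam1 (2.90), Apoe (2.86), Cd72 (3.14) and Cd63 (3.12) followed, with Pxdc1 (2.66) and Rgs1 (2.61).

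Genes lower in resident-like cells were those of monocytes, interferon and inflammation. Of 17 monocyte genes outside the score 13 were lower in every library (median -1.44), with Ifitm6 at -2.58. Of 12 interferon response genes 9 were lower in all 10 (median -1.70), among them Ifi205 (-2.41), Gbp2 (-2.27, range -3.06 to -1.13) and Isg15 (-1.60). Of 11 inflammatory genes 8 were lower in all 10 (median -1.23): Saa3 (-3.00), the protease inhibitor gene Slpi (-2.43), the activin gene Inhba (-2.21), Nos2 (-2.15), the itaconate enzyme gene Acod1 (-1.63), Il1a (-1.23), Il1b (-0.77) and Osm (-0.76). Il1b was still abundant in resident-like cells, at 4801 CPM against 8493 CPM in monocyte-like cells over the 10 libraries. Of 11 glycolysis and hypoxia genes 9 were lower too (median -0.71), such as Ldha (-0.67) and the lactate exporter gene Slc16a3 (-1.29). Haptoglobin, Hp, had the lowest median of all (-3.44), and Dmkn (-2.83), Mgst1 (-2.36), the chemokine gene Cxcl9 (-2.34) and Ly6i (-2.31) stood near it.

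Other cell types differed between the ranges as well. Per 10000 UMIs of a cell, the median of the neutrophil markers was 7.59 in resident-like and 13.3 in monocyte-like cells, and that of the plasma cell markers 33.5 and 9.46. The dendritic markers had a median of 0 in both, and 9.36 in group 29. Without group 29 the class II median was 1.88. The part of these cells in the other ratios was not tested.

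**Figure D5:**
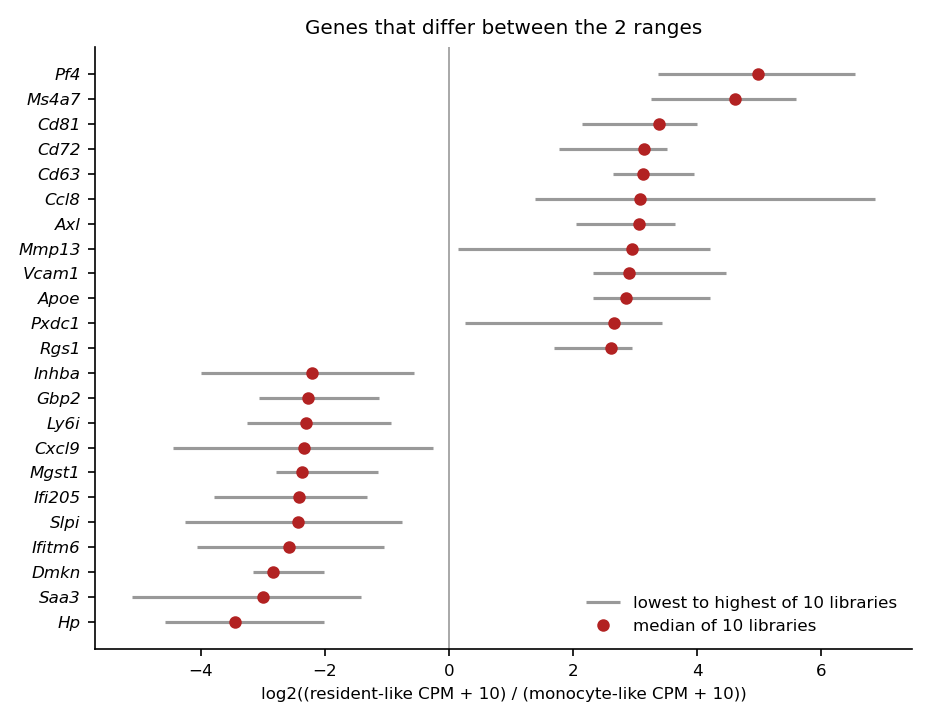
Log2 ratio of resident-like to monocyte-like CPM, with 10 CPM added to both, for the 12 highest and 11 of the 12 lowest genes. Points are medians and lines run from the lowest to the highest of 10 libraries, none of which crosses 0, and the medians run from 4.98 for Pf4 to -3.44 for Hp.

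The library labelled Il10-/- and the uninjured library were each set beside the 9 DSS libraries with exact Poisson 95% intervals of their counts, as a description of single libraries that covers counting error only. Of 2445 genes at 50 CPM or more, 93 (3.8%) in the library labelled Il10-/- lay above all 9 DSS libraries and 203 (8.3%) below. In the uninjured library 140 (5.73%) lay above and 279 (11.4%) below. The resistin-like gene Retnla, a mark of cells exposed to interleukin 4 or 13, was at 1104 CPM in the library labelled Il10-/-, at 0 to 154 CPM in the DSS libraries and at 8923 CPM in the uninjured library. The second lysozyme gene, Lyz1, was at 233 CPM in the library labelled Il10-/-, at 3.49 to 33.9 CPM in the DSS libraries and at 1901 CPM in the uninjured library. Lyz1 and Lyz2 are close copies, as are the Ifi200 genes and the Ly6 genes, so reads may be split between them. H2-Aa was at 10269 CPM in the library labelled Il10-/-, at 3568 to 9775 CPM in the DSS libraries and at 11598 CPM in the uninjured library, so all DSS libraries were lowest.

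All DSS libraries had lower levels of several resident genes than the uninjured library, and higher levels of several inflammatory genes. Apoe was at 1487 to 7918 CPM in the DSS libraries, against 14754 CPM in the uninjured library, and C1qa at 213 to 1629 CPM in the DSS libraries, against 2879 CPM in the uninjured one. Pf4 was at 23.7 to 403 CPM in the DSS libraries and 1023 CPM in the uninjured library, and Ms4a7 at 45.0 to 325 CPM in the DSS libraries and 669 CPM in the uninjured library. The interferon-induced gene Ifitm1 was at 1472 CPM or more in the DSS libraries, against 4.55 CPM (1 count, interval 0.115 to 25.3) in the uninjured library, where Slpi, Hp and Cxcl3 also had 1 count each. Inhba and Cxcl9 had 0 counts there (interval up to 16.8 CPM). Thbs1 was at 718 to 3839.5 CPM and Il1b at 3947 to 8891 CPM in the DSS libraries, against 105 CPM and 1865 CPM in the uninjured library. In the library labelled Il10-/-, C1qa was at 1689 CPM and C1qb at 1783 CPM, above the DSS libraries, although without group 29 C1qa lay within their range (2182 CPM, against 310 to 2284 CPM). H2-DMa (1044 CPM) and the chemokine gene Ccl17 (299.7 CPM) were above the DSS libraries, although without group 29 Ccl17 lay within their range (54.3 CPM, against 1.79 to 75.3 CPM), and Slpi (155 CPM), Vcan (26.1 CPM), Timp1 (24.4 CPM) and Hmox1 (45.4 CPM) below them. Neutrophil markers summed to 2539 CPM in the library labelled Il10-/- and to 36.4 CPM in the uninjured library, whose 63 members came from 8 pooled mice.

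The last comparison asked whether the day slopes of the members differed from those of neutrophils, the other large myeloid class, in the same libraries. Of 10998 genes, 80 (0.727%) had a higher and 42 (0.382%) a lower slope in the members, and 95 (0.892%) and 43 (0.404%) of 10649 without group 29. The balance turned over the 6 frozen DSS libraries alone, with 61 higher and 113 lower, and without day 7 (82 and 95), without day 23 (40 and 43) and with no filter on low counts (130 and 177). The collagenase gene Mmp13 (3.44 ± 0.48), Tbc1d8 (2.37 ± 0.33), the adaptor gene Lat2 (2.00 ± 0.42), the receptor gene Gpr171 (1.86 ± 0.43) and Lacc1 (1.61 ± 0.33) had higher slopes in the members with and without group 29. Cd209a (4.50 ± 0.87), Lmo1 and Ppm1m had them with group 29 only. All of these higher genes were low in neutrophils, at 0.483 (Cd209a) to 16.0 CPM (Ppm1m) over the DSS libraries. In the members they were at 8.17 to 104 CPM. Slopes of genes this low in neutrophils rest on few counts. Of 10 class II genes 6 had a higher slope in the members (median difference 1.27, against -0.05 over all genes), with H2-Aa at 1.16 ± 0.22 (adjusted p = 0.00981 by edgeR). Of 21 tested glycolysis genes 2, Gapdh (0.81 ± 0.18) and Ldha (0.76 ± 0.17), did so as well. The lectin gene Clec4a3 (-1.86 ± 0.33), the phosphatase gene Dusp3 (-1.57 ± 0.31), Tppp3 (-1.45 ± 0.29), Cd93 (-1.36 ± 0.26) and Il17ra (-0.94 ± 0.20) had lower slopes. Clec4a3, Dusp3 and Tppp3 were at 7.44, 4.06 and 9.09 CPM in neutrophils, and Cd93 and Il17ra at 28.7 and 82.6 CPM. Calls numbered 50 without day 18, 64 without day 19, 70 without day 9 and 204 without day 11.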

How the data were processed

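Single cells of 11 libraries were used from a matrix of UMI counts that the authors deposited together with a table of cells and their classes. Per the submitters' processing notes the reads were processed with Cell Ranger 3.0.0 on mm10. How the authors chose cells and treated doublets is not given in the sources used here. No doublet caller was run. A further 3 library columns of the cell table, with 12621 cells, matched no sample and were not used. Of 30406 gene rows, 597 placeholder rows (0.517% of counts) were left out.

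Counts were summed per library over the named cells, and sums over fewer than 20 cells were left out. Day slopes were fitted with edgeR 4.0.16 in R 4.3.3 (filterByExpr, TMM, robust quasi-likelihood test, batch label and day per 10 days as terms) over 9 DSS libraries, with Benjamini-Hochberg adjustment, and SEs were derived from slope and F. Differences in slope came from a joint fit of both populations with each library as a term. The fits were tested on simulated data. The uninjured library and that labelled Il10-/- had no test. Each DSS day was 1 library as well, with no replicate. The p-values of the fits therefore measure the scatter of libraries of pooled mice around a straight line in day. Library differences and any bend in the time course are mixed in that scatter. Exact Clopper-Pearson and Poisson intervals (Python 3.11.15, scipy 1.17.1) cover counting error only. Of the barcodes of all cells 611 occurred in more than 1 library.

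The members and gene lists were chosen with earlier results of these data known. Named genes are the 12 rising and 12 falling called genes with the largest slopes (8 and 8 within a range or for a slope difference) among those with CPM at least that of all other cells, and the 2 to 4 members of a list with the largest change. Genes with provisional names and mitochondrial, ribosomal, antibody and haemoglobin genes were not named, except as cell markers, and a few other genes are not reported here. Ero1l is the older symbol of Ero1a. Gene positions are from the GENCODE vM21 annotation of the same build, and promoters from RefSeq on GRCm38.p6. Alternatives were DESeq2 1.42.0, DESeq2's size factors, no filter on low counts, no batch term, single batches, stricter cells, other score limits and thinning, and leaving out each library. After the data were seen, fits without cell group 29 were added.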

Additional observations from a re-analysis of the deposited data

Results flagged for a closer look

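In a joint edgeR fit the test of the slope difference itself called 3 genes as higher and 9 as lower in resident-like than in monocyte-like cells. The differences, in log2 per 10 days, were 1.01 for Cd33 and 0.75 for Apoe on the higher side. On the lower side they were -1.30 for Ifi211, -1.14 for Ero1l, -0.94 for Nr4a2, -0.90 for Gbp2, -0.80 for Ifitm3, -0.78 for Samhd1 and -0.68 for Ier3. DESeq2 called none of these named genes (adjusted p 0.0741 to 0.279). Without cell group 29 Cd33 (adjusted p = 0.0891 by edgeR) and Nr4a2 (adjusted p = 0.19) were not called.

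The same test called 80 genes as higher and 42 as lower in the members than in neutrophils. The differences on the higher side were 4.50 for Cd209a, 3.44 for Mmp13, 2.55 for Lmo1, 2.37 for Tbc1d8, 2.00 for Lat2, 1.86 for Gpr171, 1.64 for Ppm1m and 1.61 for Lacc1. On the lower side they were -1.86 for Clec4a3, -1.57 for Dusp3, -1.45 for Tppp3, -1.36 for Cd93, -1.11 for Sirpb1c, -0.98 for Tfip11, -0.94 for Il17ra and -0.90 for Gpr35. In neutrophils of the DSS libraries the genes on the higher side were at only 0.483 to 16.0 CPM. Those on the lower side were at 4.06 to 116 CPM there. Over the 6 frozen DSS libraries alone the counts were 61 higher and 113 lower, and without day 7 they were 82 and 95. Without cell group 29 Cd209a, Lmo1, Ppm1m and Tfip11 were not called. In the frozen libraries Cd209a, Lmo1, Lat2, Gpr171, Ppm1m, Lacc1, Clec4a3, Tfip11 and Gpr35 were not called.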

How the results depend on the processing

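No named gene's slope and no r of the monocyte-like share changed its sign under the alternatives. Without group 29 the medians of several lists other than cell type markers changed sign. In monocyte-like cells these were inflammatory (0.02), lysosome (0.04), lipid (0.20), interferon response (0.21), iron (-0.0035), alternative activation (-0.21) and cell cycle genes (-0.03). In resident-like cells they were lipid (0.10), iron (0.05) and alternative activation genes (-0.37). In all members they were hypoxia and glycolysis (0.06), alternative activation (0.06), complement (0.03), Fc, scavenger and lectin receptors (0.02), uptake of dying cells (0.14) and costimulation genes (-0.11). Some list medians of the slope differences changed sign as well. In all members 976 genes were called with day, 147 with no batch term, 642 without cell group 29 over the 6 frozen DSS libraries, and 346 to 1113 when 1 library was left out. DESeq2 called 974, of which 819 were shared. In monocyte-like cells 511 were called, 323 over the frozen libraries, 33 with no batch term, 155 without group 29 and 141 to 560 when 1 library was left out. In resident-like cells 68 were called, 212 with no filter on low counts, 112 by DESeq2, 233 over the frozen libraries, 41 with stricter cells, 3 with no batch term, 167 with the score limit at 0 and 6 to 185 when 1 library was left out. For the difference between the ranges 12 were called, 33 with no filter, 4 by DESeq2 with 1 of them shared, 83 over the frozen libraries, 4 with stricter cells, 42 without group 29 and 1 to 44 when 1 library was left out. Against neutrophils 122 were called, 307 with no filter, 174 over the frozen libraries and 50 to 204 when 1 library was left out. The cause of these changes was not tested. The r of the monocyte-like share with day was -0.943 to -0.851 when 1 library was left out and -0.930 with the limit at 0. It was -0.932 at 500 UMIs, -0.809 with no thinning and -0.874 without group 29. Of the named genes' values under the alternatives, 392 kept and 37 lost the call in all members, 199 and 70 in monocyte-like cells, 171 and 96 in resident-like cells, 68 and 82 for the difference between the ranges and 186 and 53 against neutrophils. No paired analysis was possible because the labels give no replicate numbers that could pair libraries of different groups, while the joint fits of 2 populations held each library as a term. Resident-like cells numbered 24 to 243 per DSS library, which limits their depth.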

Other observations

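Few genes of several further groups were called by edgeR in the members over the DSS days. Among all 9965 genes 3.91% rose and 5.88% fell, and without group 29 3.93% and 4.91% of 9217. Of 14 alternative activation genes, named for cells exposed to interleukin 4 or 13, Mgl2 rose and Il4ra and Tgfbi fell (median slope -0.04, and 0.06 without group 29). Tgfbi, a secreted matrix protein gene, had a slope of -0.56 ± 0.13 (adjusted p = 0.0141 by edgeR). Of 19 tested Fc, scavenger and lectin receptor genes Mgl2 rose and Clec4a1, Clec4d and Clec4e fell (median -0.08, and 0.02 without group 29), Clec4a1 with group 29 only. Clec4e, which encodes the glycolipid receptor Mincle, was at 1018, 702, 943, 745 and 700.4 CPM on days 6, 7, 9, 11 and 12, and at 539, 180.1, 523 and 428 CPM on days 16, 18, 19 and 23. Day 18 was lowest and day 6 highest, with a slope of -1.02 ± 0.23 (adjusted p = 0.029 by edgeR). Of 13 tested oxidative burst and calprotectin genes 2 fell (median -0.35), among them the calcium-binding protein gene S100a6 (-0.30 ± 0.09), and DESeq2 called 7 as falling.

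Of 21 tested hypoxia and glycolysis genes Pfkfb3 (-0.54 ± 0.13) and Slc16a3 (-0.60 ± 0.15) fell (median -0.12), and without group 29 Slc16a3 alone was called (median 0.06). Of 16 tested cell cycle genes Stmn1 (1.04 ± 0.26) and the replication helicase gene Mcm6 (0.77 ± 0.20) rose (median 0.72, with 14 of 16 slopes above 0), Mcm6 with group 29 only, although cells named as proliferating had been left out. These numbered 136, from 3 on day 6 to 21 on day 19, with 31 in the library labelled Il10-/- and 4 in the uninjured library. Among complement genes the integrin gene Itgax rose (0.47 ± 0.11) while Itgam fell (-0.88 ± 0.12).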
